A study of Mus musculus with 6 samples.

Results

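Genes of the centrosome and of microtubule nucleation were described in tip and stalk cells of the ureteric epithelium, the branching epithelial tree of the developing kidney that becomes the collecting ducts. The members were the gene symbols that start with Cep and a digit or with Tubg, together with Pcnt, Plk4, Sass6, Stil, Cenpj, Cntrob and Pcm1. They numbered 45 of the 21456 gene symbols with values. The rule reads symbols and no measured value, but it was set with earlier results of these data known. Both groups came from kidneys of CFW mice at E16.5. Tip cells carried both a red reporter driven by Wnt11 and a green reporter driven by Hoxb7, given in the labels as Wnt11RFP+;Hoxb7GFP+, and stalk cells carried only the green one, Wnt11RFP-;Hoxb7GFP+. Poly(A) RNA was sequenced in 3 libraries per group. Separate animals, litters or sorts are not named in the labels for the libraries of a group, and the spread behind each p-value, that between these libraries, may be technical. Values are RPKM, reads per kilobase of transcript scaled to the mapped reads of the library, summed over the rows of a symbol, with SD over n = 3 libraries. The depth behind them was unknown. Wnt11, the gene behind the tip reporter, was at 423 to 930 RPKM in tip and 1.92 to 24.5 RPKM in stalk. On the second principal component of all tested genes, which held 9.21% of the variance, tip replicate 2 and stalk replicate 1 lay far from the remaining 4.

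The centrosome is the main microtubule organizing centre of animal cells. A pair of centrioles sits in a pericentriolar matrix that holds gamma-tubulin ring complexes, from which microtubules grow. The pair is copied once per cell cycle, under control of the kinase PLK4, which acts with STIL and SAS-6 to build the cartwheel of the new centriole. In cells that have left the cycle or rest in G1, the older centriole can dock at the membrane through its distal appendages and carry the primary cilium, which renal tubule cells use as a sensor.

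Transcripts of most members were more abundant in tip. Plk4 stood 4.51-fold higher in tip, and Stil, Cep55, Cep128 and Cep170 were higher by at least 1 log2 unit as well. Cep44, which encodes a protein of the proximal centriole lumen, was the 1 member higher in stalk. Of the 44 members with a mean of at least 1 RPKM, which were tested with limma across all genes, 27 passed toward tip at an adjusted p under 0.05, 1 passed toward stalk and 16 were not called. Without tip replicate 2 and stalk replicate 1, 25 passed toward tip and 2 toward stalk. Over all 12532 genes tested, 26.1% passed toward tip and 22.5% toward stalk, so that 48.6% were called in either direction. The log2 difference is tip minus stalk of log2(RPKM + 1), also called the log2 fold change. Numbers in parentheses that stand alone or before a p are this quantity. Its median was 0.61 over the tested members and 0.05 over all genes tested. The lowest-expressed member, Tubg2, was under 1 RPKM in every library and was not tested.

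**Figure D1:**
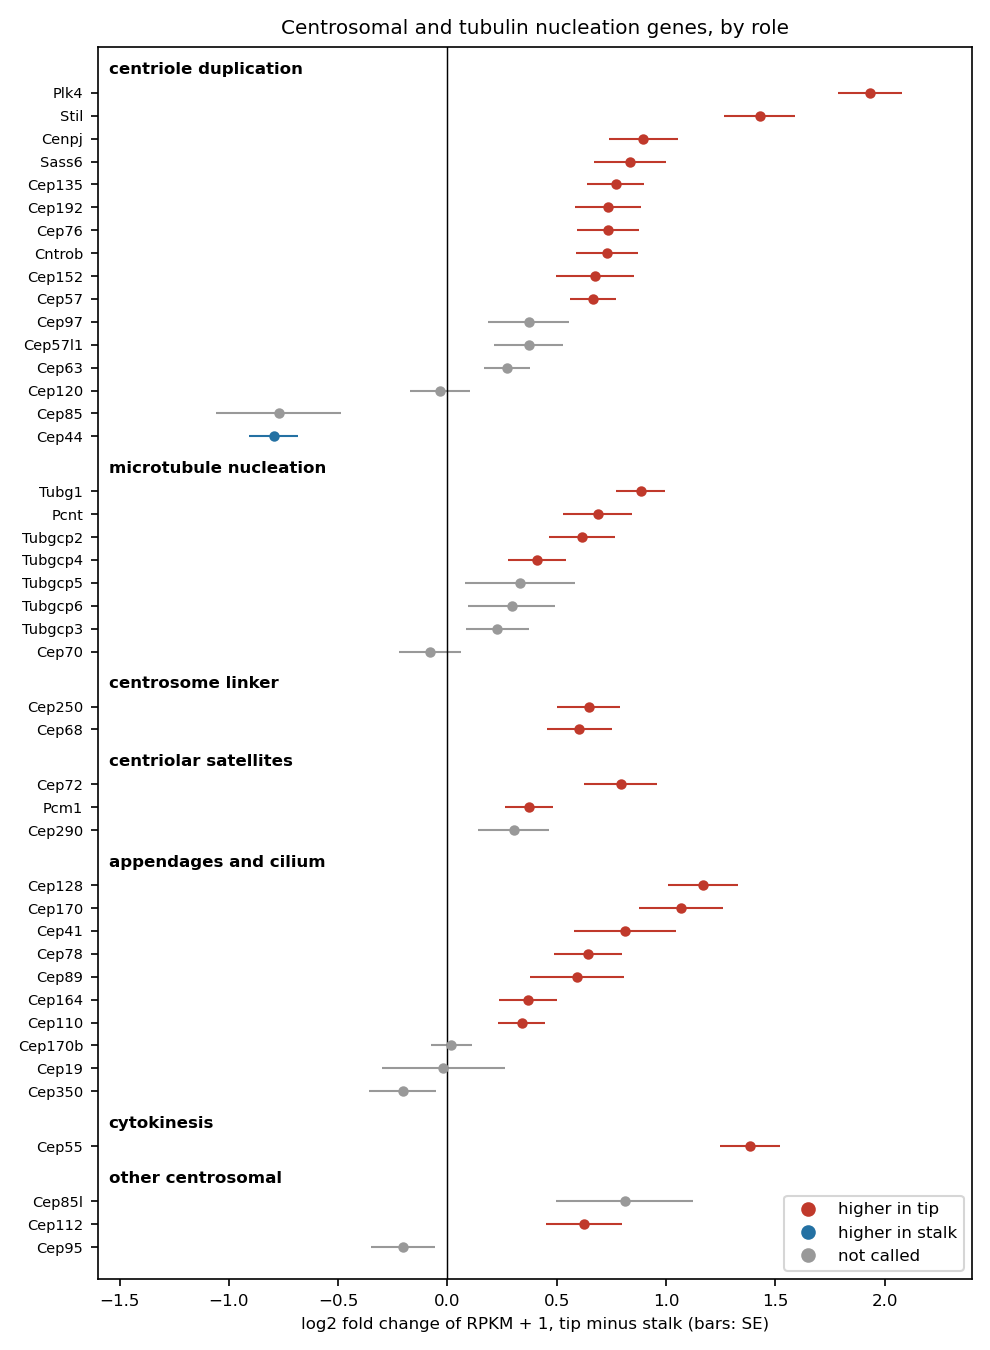
Log2 fold change of RPKM + 1 (tip minus stalk, horizontal axis, bars 1 SE) of 43 of the 44 tested members, grouped by role. Plk4 lies farthest to the tip side at 1.93, and Cep44 at -0.80 is the only member called higher in stalk.

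Annotated start regions are shown for 4 of the 5 members past 1 log2 unit and for the member called toward stalk, to set the sequence beside the measurements. Each is a window of 300 bases, 250 before and 50 after the RefSeq start site, on GRCm38.p6, the build also called mm10, read on the strand of the gene. Capitals mark matches, on either strand, to letters that are known to recur at promoters of cell cycle genes: TTTGAA for the CHR element, TTTCCCGC or TTTGGCGC for E2F factors, and CCAAT for NF-Y. Plk4, Stil, Cep55 and Cep128 are given as members higher in tip, and Cep44 as the member higher in stalk.
Plk4 (chr3:40799701-40800000, plus strand): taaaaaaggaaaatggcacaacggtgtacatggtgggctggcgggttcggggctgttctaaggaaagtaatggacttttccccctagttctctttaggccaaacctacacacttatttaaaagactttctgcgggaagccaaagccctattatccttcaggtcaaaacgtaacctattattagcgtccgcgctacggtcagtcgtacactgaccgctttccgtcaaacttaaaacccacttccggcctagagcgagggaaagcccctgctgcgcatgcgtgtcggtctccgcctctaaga
Stil (chr4:114999868-115000167, plus strand): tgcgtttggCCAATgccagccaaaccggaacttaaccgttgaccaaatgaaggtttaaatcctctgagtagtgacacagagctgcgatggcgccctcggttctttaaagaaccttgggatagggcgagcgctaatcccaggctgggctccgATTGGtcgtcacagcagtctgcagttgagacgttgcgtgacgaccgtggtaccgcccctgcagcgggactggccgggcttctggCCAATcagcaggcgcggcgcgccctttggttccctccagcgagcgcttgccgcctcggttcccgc
Cep55 (chr19:38054734-38055033, plus strand): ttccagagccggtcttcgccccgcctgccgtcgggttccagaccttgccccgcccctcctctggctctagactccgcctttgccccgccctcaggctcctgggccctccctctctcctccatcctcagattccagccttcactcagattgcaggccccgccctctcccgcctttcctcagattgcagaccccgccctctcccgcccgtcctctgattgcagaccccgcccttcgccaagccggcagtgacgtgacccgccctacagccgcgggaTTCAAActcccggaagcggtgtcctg
Cep128 (chr12:91384360-91384659, minus strand): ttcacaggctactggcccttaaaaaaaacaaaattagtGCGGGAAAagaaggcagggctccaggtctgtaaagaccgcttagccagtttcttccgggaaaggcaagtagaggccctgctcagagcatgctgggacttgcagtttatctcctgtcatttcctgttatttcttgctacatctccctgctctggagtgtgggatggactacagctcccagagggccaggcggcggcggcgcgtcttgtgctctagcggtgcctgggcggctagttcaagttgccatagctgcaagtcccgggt
Cep44 (chr8:56550517-56550816, minus strand): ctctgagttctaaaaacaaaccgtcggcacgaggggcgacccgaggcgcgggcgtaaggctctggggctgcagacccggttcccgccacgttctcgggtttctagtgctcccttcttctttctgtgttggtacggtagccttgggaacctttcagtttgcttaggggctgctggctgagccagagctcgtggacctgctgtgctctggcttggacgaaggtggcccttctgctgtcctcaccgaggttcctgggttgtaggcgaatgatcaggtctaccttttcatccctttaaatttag

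Plk4 and Cep44 held none of these letters in the window. The Plk4 window ends at 40800000, short of the plus-strand start of the gene in GENCODE at 40800019. The Cep44 window lies inside the gene as annotated in GENCODE, whose minus-strand start at 56551047 it does not cover. Stil held 3 CCAAT matches, the nearest of which began at position -15 from the start site. Cep55 held a CHR match in the reverse direction, beginning at position 24 from the start site, and a second annotated window that overlaps the first held the same match. Cep170, the other member past 1 log2 unit, has a pair of annotated windows that are not printed. The window at 176807075 to 176807374 held a CHR match, in the reverse direction at position -60. It lies inside the gene, whose minus-strand start in GENCODE is at 176814067. The Cep170 window over that start, 176813904 to 176814203, held no match. Cep128 held an E2F match in the reverse direction, beginning at position -212 from the start site. The CHR letters occurred in 7 of the 20 members higher in tip that had a window, in 1 of the 14 such members that were not called or not tested, and in 20.2% of all 27025 genes with a window. The CCAAT letters occurred in 9 of these 20, in 5 of these 14 and in 41.1% of all genes. The E2F letters occurred in Cep128 alone of the 35 members with a window, and in 1.8% of all genes. These counts describe letters and do not show binding, and none of the motifs lies within another, although end bases of neighbouring matches can be shared.

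Centriole duplication. All 16 members of this role were tested, and 10 rose in tip and 1 fell in tip, with a median log2 difference of 0.70. Of all genes tested, 26.1% passed toward tip and 22.5% toward stalk. Plk4 (chromosome 3, 40800019 to 40816883, plus strand, mm10), the kinase that starts duplication, stood at 20.9, 16.2 and 17.6 RPKM in tip replicates 1 to 3 and at 4.18, 3.34 and 4.599 RPKM in stalk replicates 1 to 3. The lowest tip library was more than 3 times the highest stalk library, and the log2 difference was 1.93 (limma adjusted p = 2.83e-05, SE 0.15). Stil (chromosome 4, 115000159 to 115043196, plus strand), the scaffold that PLK4 phosphorylates, stood at 8.47, 6.35 and 7.76 RPKM in tip, against 2.38, 1.68 and 2.46 RPKM in stalk. Its groups did not overlap, and the log2 difference was 1.43 (limma adjusted p = 0.000208, SE 0.16). Each of the 2 genes was lowest in replicate 2 of both groups.

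The rest of the assembly machinery changed less. Sass6, whose product forms the hub and spokes of the cartwheel, stood at 3.40, 2.87 and 3.79 RPKM in tip, against 1.12, 1.64 and 1.58 RPKM in stalk, a log2 difference of 0.83 (limma adjusted p = 0.00355). Cenpj, which promotes growth of the centriole wall, had a mean of 3.40 ± 0.38 RPKM in tip, against 1.36 ± 0.25 RPKM in stalk, a log2 difference of 0.90 (limma adjusted p = 0.00189). Every tip library lay above every stalk library for both genes. Cep152 and Cep192 are scaffolds that recruit PLK4 to the mother centriole. Cep152 stood at 3.30 ± 0.45 RPKM in tip, against 1.71 ± 0.49 RPKM in stalk, and Cep192 at 7.84 ± 0.29 RPKM in tip, against 4.36 ± 0.87 RPKM in stalk. Both were higher in tip (Cep152 0.67, limma adjusted p = 0.0142, Cep192 0.74, limma adjusted p = 0.0043), and the Cep152 call was lost without tip replicate 1 or tip replicate 3 (adjusted p = 0.0531 to 0.0585). Cep63, the partner of CEP152, was at 12.2 ± 0.51 RPKM in tip, against 9.90 ± 0.62 RPKM in stalk, and was not called (0.27, limma adjusted p = 0.0632) although its groups did not overlap.

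Cep57, which acts with CEP63 at the mother centriole, was the most abundant member of the role after Cep85. It stood at 25.0, 24.9 and 22.1 RPKM in tip, against 14.4, 13.9 and 15.9 RPKM in stalk, with a log2 difference of 0.67 (limma adjusted p = 0.0011, SE 0.11). Its paralog Cep57l1 was at 3.21 ± 0.27 RPKM in tip, against 2.27 ± 0.43 RPKM in stalk and was not called (0.37, limma adjusted p = 0.0828). The tip side also held Cep135, a protein of the proximal centriole (0.77, limma adjusted p = 0.00169), Cep76, which limits reduplication (0.73, limma adjusted p = 0.00329), and Cntrob, a protein of daughter centrioles (0.73, limma adjusted p = 0.00317). Cep97, part of the cap that keeps centrioles short (0.37, limma adjusted p = 0.131), was not called. Cep120, a partner of CENPJ in elongation, was at 8.95 ± 0.49 RPKM in tip, against 9.26 ± 1.46 RPKM in stalk, a log2 difference of -0.04 (SE 0.14).

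**Figure D2:**
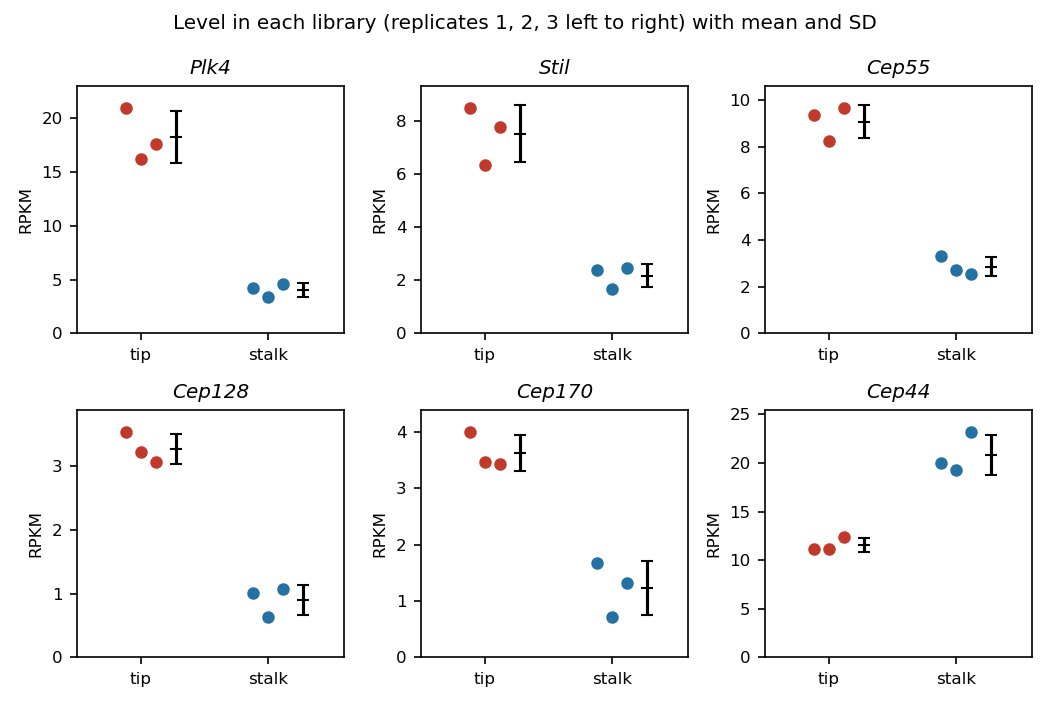
RPKM of 6 members in each library, with tip (red) left of stalk (blue) and the mean with its SD beside each group. Every tip library lies above every stalk library for Plk4, Stil, Cep55, Cep128 and Cep170, and every stalk library lies above every tip library for Cep44.

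Cep44 (chromosome 8, 56531522 to 56551047, minus strand) encodes a protein of the centriole lumen that is needed for a centriole to mature into a centrosome in human cells. It stood at 11.2, 11.1 and 12.4 RPKM in tip, against 20.0, 19.3 and 23.1 RPKM in stalk. The tip libraries lay close together below all stalk libraries, and the log2 difference was -0.80 (limma adjusted p = 0.000594, SE 0.11). The values came from 8 rows, of which the highest held 62.7% of the mean level. On that row alone Cep44 was at 7.05, 7.72 and 9.73 RPKM in tip, against 12.4, 10.5 and 13.5 RPKM in stalk, with a log2 difference of -0.52 (limma adjusted p = 0.0256).

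Cep85, which restrains the kinase NEK2 and binds STIL, had the highest summed level of all members, but 96.5% of it lay in 1 of its 8 rows. That row stood at 84.4, 147 and 75.7 RPKM in tip, against 251, 127 and 163 RPKM in stalk. The other 7 rows together stood at 5.40, 5.18 and 5.99 RPKM in tip, against 4.93, 5.02 and 4.35 RPKM in stalk. The highest row thus overlapped between groups and peaked in tip replicate 2 and in stalk replicate 1, the libraries that stood apart from the others on the second principal component of all tested genes. Summed over all rows, Cep85 was not called (-0.77, limma adjusted p = 0.0533). It passed toward stalk without tip replicate 2 (-1.05, adjusted p = 0.0109), without stalk replicate 2 (-0.99, adjusted p = 0.0287) and without tip replicate 2 and stalk replicate 1 together (-0.78, adjusted p = 0.00267). Without its highest row the log2 difference was 0.18 (limma adjusted p = 0.279), so the direction of the summed value is that of a single row. Rows carry no transcript name, and which transcript it is was not stated. The gene (chromosome 4, 134129858 to 134187112, minus strand) ends 1068 bases from Sh3bgrl3, which lies on the same strand and stood at 54.9, 62.1 and 59.3 RPKM in tip, against 126, 131 and 117 RPKM in stalk. The part of this neighbour in the Cep85 values was not tested.

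**Figure D3:**
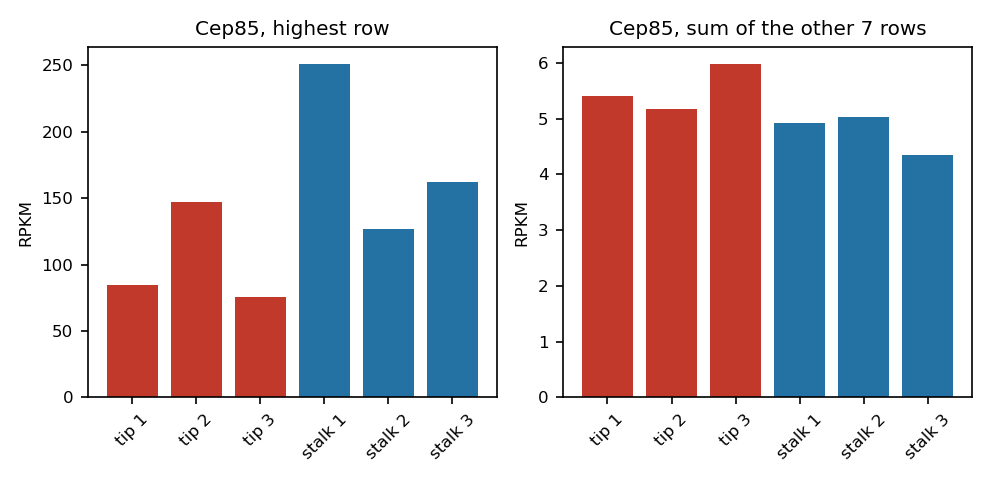
RPKM of Cep85 in each library for its highest row (left panel) and for the other 7 rows summed (right panel), with tip in red and stalk in blue. The highest row reaches 251 RPKM in stalk replicate 1, while the other rows lie between 4.35 and 5.99 RPKM in all libraries.

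Microtubule nucleation. Of the 9 members of this role 8 were tested, and 4 passed toward tip and 0 toward stalk, with a median of 0.37. The shares over all genes tested were 26.1% toward tip and 22.5% toward stalk. Tubg1 (chromosome 11, 101119938 to 101126419, plus strand), the gene of gamma-tubulin, stood at 26.5, 24.8 and 27.4 RPKM in tip, against 11.98, 14.8 and 14.6 RPKM in stalk. Its tip libraries all lay above its stalk libraries, a 1.90-fold ratio of means and a log2 difference of 0.88 (limma adjusted p = 0.000375, SE 0.11). The paralog Tubg2 lies on the same strand 29487 bases away and was at 0.301, 0.198 and 0.317 RPKM in tip, against 0.146, 0.347 and 0.654 RPKM in stalk, values that overlapped. Tubg2 made up 1.12, 0.794 and 1.14% of the summed Tubg1 and Tubg2 level in tip and 1.21, 2.29 and 4.27% in stalk. All tip values of this share lay below all stalk values, with an exact two-sided permutation p of 0.1, the smallest that 3 against 3 libraries can give. Tubg1 made up nearly all of the sum, so the share also carries the Tubg1 difference and is not separate from it. The paralogs are close in sequence and reads may be split between them, so the Tubg2 values are uncertain.

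The gamma-tubulin complex genes Tubgcp2 to Tubgcp6 encode the proteins that arrange gamma-tubulin into a ring. Tubgcp2, which with TUBGCP3 forms the core small complex, stood at 15.04, 12.5 and 12.5 RPKM in tip, against 7.22, 7.72 and 10.2 RPKM in stalk, and rose in tip (0.62, limma adjusted p = 0.00975). Tubgcp3 stood at 21.7, 21.7 and 17.5 RPKM in tip, against 16.4, 14.95 and 20.5 RPKM in stalk, and was not called (0.23, SE 0.14, limma adjusted p = 0.223). In both genes stalk replicate 3 was the highest stalk library, and for Tubgcp3 it lay above tip replicate 3. Of the subunits found only in the full ring, Tubgcp4 was higher in tip (12.3 ± 1.21 RPKM in tip, 9.03 ± 1.28 RPKM in stalk, 0.41, limma adjusted p = 0.0332), a call lost without tip replicate 1, tip replicate 2, stalk replicate 1 or stalk replicate 3 (adjusted p = 0.0800 to 0.102). On its highest row alone Tubgcp4 was not called (1.01, adjusted p = 0.142). Tubgcp5 (6.65 ± 1.82 RPKM in tip, 5.13 ± 1.86 RPKM in stalk) and Tubgcp6 (6.88 ± 1.11 RPKM in tip, 5.51 ± 1.66 RPKM in stalk) were not called. Summed over the 5 genes, the level was 64.5, 58.0 and 55.9 RPKM in tip and 40.6, 41.9 and 53.5 RPKM in stalk.

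In tip, the mean RPKM fell in the order Tubg1, Tubgcp3, Tubgcp2, Tubgcp4, Tubgcp6, Tubgcp5 and Tubg2. In stalk it fell in the order Tubgcp3, Tubg1, Tubgcp4, Tubgcp2, Tubgcp6, Tubgcp5 and Tubg2. The libraries of Tubgcp2 and Tubgcp4, and those of Tubgcp5 and Tubgcp6, overlapped within each group, and in stalk those of Tubgcp2 and Tubgcp6 did as well. All other neighbours in either order were apart in every library of the group. Both orders rest on summed rows, 9 for Tubgcp3 and 14 for Tubgcp4, but 2 for Tubg1 and 1 for Tubgcp2. On the highest row alone, averaged over all 6 libraries, Tubgcp3 was at 8.96 RPKM and Tubg1 at 19.9 RPKM. On the same measure Tubgcp4 was at 2.31 RPKM and Tubgcp2 at 10.9 RPKM, so the orders depend on the summing. Pcnt, the pericentrin scaffold that anchors these complexes, was at 8.06 ± 0.99 RPKM in tip, against 4.65 ± 0.93 RPKM in stalk and was higher in tip (0.69, limma adjusted p = 0.00739). Cep70, which binds gamma-tubulin, was at 6.29 ± 0.83 RPKM in tip, against 6.70 ± 0.79 RPKM in stalk and was not called (-0.08, SE 0.14).

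**Figure D4:**
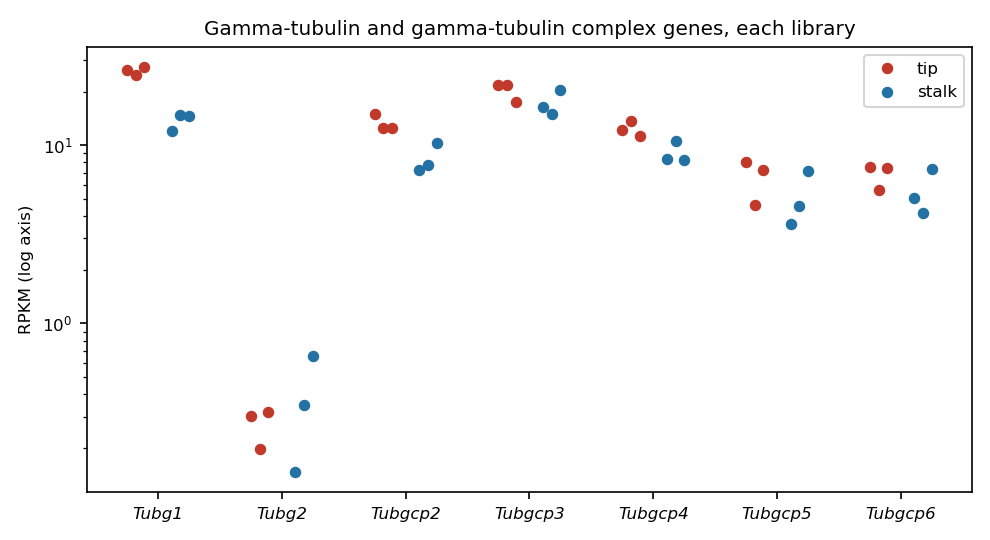
RPKM (log axis) of gamma-tubulin and gamma-tubulin complex genes in each library, tip in red left of stalk in blue. Tubg1 in tip lies between 24.8 and 27.4 RPKM, above all its stalk values, while Tubg2 stays under 1 RPKM in all 6 libraries.

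Linker, satellites and cytokinesis. Both genes of the linker that ties centrioles together were higher in tip, beside 26.1% of all genes tested. Cep250, which encodes C-Nap1, the docking site of the linker, stood at 10.2, 8.76 and 9.03 RPKM in tip, against 4.93, 5.15 and 6.85 RPKM in stalk (0.65, limma adjusted p = 0.00676). Cep68, a linker filament protein, stood at 10.8, 8.01 and 11.1 RPKM in tip, against 5.54, 6.42 and 6.57 RPKM in stalk (0.60, limma adjusted p = 0.0105). Neither gene overlapped between groups, and 31.3% of all genes tested had every tip library above every stalk library.

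Centriolar satellites are granules that move proteins to the centrosome and cilium. Of 3 members in this role, Cep72 and Pcm1 were higher in tip. Toward tip 26.1% of all genes tested passed, and toward stalk 22.5%. Pcm1, the scaffold of the satellites, stood at 21.9, 18.5 and 18.7 RPKM in tip, against 14.1, 14.7 and 16.0 RPKM in stalk, a 1.32-fold ratio (0.37, SE 0.11, limma adjusted p = 0.0228). This call was lost without tip replicate 1 (adjusted p = 0.0958), without stalk replicate 1 (adjusted p = 0.0549) and without stalk replicate 2 (adjusted p = 0.0567). Cep72 stood at 4.56, 3.62 and 4.43 RPKM in tip, against 1.67, 1.82 and 2.56 RPKM in stalk (0.79, limma adjusted p = 0.00483). Cep290, a protein of satellites and of the ciliary transition zone, overlapped between groups at 2.94 ± 0.50 RPKM in tip, against 2.19 ± 0.31 RPKM in stalk (0.30, limma adjusted p = 0.156).

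Cep55 (chromosome 19, 38055011 to 38074423, plus strand) leaves the centrosome in mitosis and recruits the ESCRT machinery that cuts the bridge between daughter cells. It stood at 9.34, 8.26 and 9.64 RPKM in tip, against 3.32, 2.73 and 2.56 RPKM in stalk. All tip libraries lay above all stalk libraries, a 3.17-fold ratio and a log2 difference of 1.38 (limma adjusted p = 9.23e-05, SE 0.14).

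Appendages and cilium. Of 11 members, 7 passed toward tip and 0 toward stalk, with a median of 0.37, where 26.1% and 22.5% of all genes tested did so. The largest changes were those of genes of the subdistal appendages, which anchor microtubules on the mother centriole. Cep128 (chromosome 12, 90998492 to 91384409, minus strand) stood at 3.53, 3.21 and 3.06 RPKM in tip, against 1.01, 0.635 and 1.07 RPKM in stalk (1.17, SE 0.16, limma adjusted p = 0.000551). Cep170 (chromosome 1, 176733653 to 176814067, minus strand) stood at 3.99, 3.46 and 3.44 RPKM in tip, against 1.67, 0.720 and 1.32 RPKM in stalk (1.07, SE 0.19, limma adjusted p = 0.00218). In both genes stalk replicate 2 was lowest and the groups did not overlap. Cep170b, the paralog of Cep170, was more abundant, with 25.1, 26.7 and 24.8 RPKM in tip, against 25.4, 23.6 and 26.6 RPKM in stalk. The Cep170b groups overlapped, with a log2 difference of 0.02 (limma adjusted p = 0.888, SE 0.09). Cep110, the symbol used in the files for the gene now named Cntrl, encodes centriolin of the same appendages and was at 10.8 ± 0.41 RPKM in tip, against 8.36 ± 0.46 RPKM in stalk (0.34, limma adjusted p = 0.0296). The call was lost when any library other than stalk replicate 2 was left out (adjusted p = 0.0576 to 0.0886). It was spread over 19 rows, and on the highest of them alone it was not called (-0.01, adjusted p = 0.992).

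Among distal appendage genes, which dock the centriole for ciliogenesis, Cep164 was at 9.92 ± 0.38 RPKM in tip, against 7.51 ± 1.22 RPKM in stalk (0.37, limma adjusted p = 0.0481), a call lost when any library other than stalk replicate 3 was left out (adjusted p = 0.0818 to 0.140). Cep89 stood at 15.8, 10.0 and 12.6 RPKM in tip, against 5.87, 8.61 and 10.1 RPKM in stalk, and was called (0.59, limma adjusted p = 0.0486) although tip replicate 2 lay below stalk replicate 3. Its call was lost when any library other than tip replicate 2 or stalk replicate 3 was left out, with adjusted p from 0.0756 to 0.164. Cep78, a protein of the distal centriole (0.64, limma adjusted p = 0.00939), and Cep41, which supports tubulin glutamylation in cilia (0.81, limma adjusted p = 0.0194), were higher in tip. The Cep41 call was lost without tip replicate 1, tip replicate 3 or stalk replicate 3 (adjusted p = 0.0519 to 0.0725). Not called were Cep19, which promotes ciliogenesis (-0.02, SE 0.28), and Cep350, which anchors microtubules (-0.20, limma adjusted p = 0.302). Cep19 ranged widely within stalk, at 5.90, 14.5 and 9.90 RPKM, against 9.56, 7.38 and 11.6 RPKM in tip.

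Of the 3 remaining members, Cep112 stood at 2.73, 1.92 and 1.78 RPKM in tip, against 1.097, 0.900 and 1.08 RPKM in stalk (0.62, limma adjusted p = 0.0174), a call lost without tip replicate 1 (adjusted p = 0.0769). Cep85l was at 2.82, 1.01 and 1.51 RPKM in tip, against 0.718, 0.0436 and 0.991 RPKM in stalk. Its groups did not overlap but lay close, and it was not called (0.81, SE 0.31, limma adjusted p = 0.0608). It passed toward tip without tip replicate 2 (1.02, adjusted p = 0.0370), without tip replicate 2 and stalk replicate 1 together (1.103, adjusted p = 0.0411) and with the replicate number as a block (0.81, adjusted p = 0.0314). Cep95 stood at 4.97, 6.82 and 5.92 RPKM in tip, against 6.40, 7.71 and 6.65 RPKM in stalk, and was not called (-0.20, limma adjusted p = 0.277).

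Across the members, tip lay above stalk in every library for 30 of 44 tested genes and stalk above tip for 1, where 31.3% and 26.5% of all genes tested did so. Of the 16 members not called, 10 had a positive and 6 a negative log2 fold change, and 12 overlapped between groups. Of the called members, 5 changed by at least 1 log2 unit toward tip, beside 8.24% of all genes tested. Summed over all 45 members, the level was 514, 525 and 475 RPKM in tip, against 519, 407 and 473 RPKM in stalk, groups that overlapped, with a 1.08-fold ratio of means. Without Cep85, the summed level of the members was 424, 373 and 394 RPKM in tip, against 263, 276 and 306 RPKM in stalk. These groups did not overlap, and the ratio of means was 1.41-fold.

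Related genes outside the member rule were taken from lists of general knowledge, chosen with earlier results of these data known. Of 46 tested, 30 passed toward tip and 0 toward stalk, with a median of 0.53. Over all genes tested, 26.1% passed toward tip and 22.5% toward stalk. Augmin, the complex that branches microtubules within the spindle, had 6 of 8 subunit genes higher in tip, led by Haus6 (7.94 ± 1.22 RPKM in tip, 2.60 ± 0.15 RPKM in stalk) and Haus3 (8.09 ± 0.97 RPKM in tip, 3.11 ± 0.19 RPKM in stalk). Among pericentriolar genes 5 of 9 were higher in tip, led by Nedd1, which attaches the gamma-tubulin ring (0.54), and Ninl (0.52). Among centriole genes 9 of 16 were higher in tip, led by Poc1a of the centriole wall (1.02) and Ccp110 of its cap (0.94). Of 6 kinase genes 4 were higher in tip, led by Plk1 (1.57) and Aurka (1.49), which drive centrosome maturation. Of 7 spindle pole genes 6 were higher in tip, led by the AURKA activator Tpx2 (1.79) and Tacc3 (1.72).

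Lists of cell division genes moved with the members. All 20 DNA replication and all 20 mitosis genes were higher in tip, against 26.1% of all genes tested, with medians of 1.73 and 1.68. Their summed levels were 663 to 813 RPKM in tip and 203 to 246 RPKM in stalk for replication, and 631 to 830 RPKM in tip and 185 to 234 RPKM in stalk for mitosis. Plk4, Stil, Cep55, Cep128 and Cep170 lay within the range of the replication list (0.92 to 2.03). Plk4 lay above the medians of both lists, and all other tested members lay below them. In bulk samples, fewer cells of a type and less RNA per cell cannot be told apart, and the part of dividing cells in the centrosomal values was not tested.

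**Figure D5:**
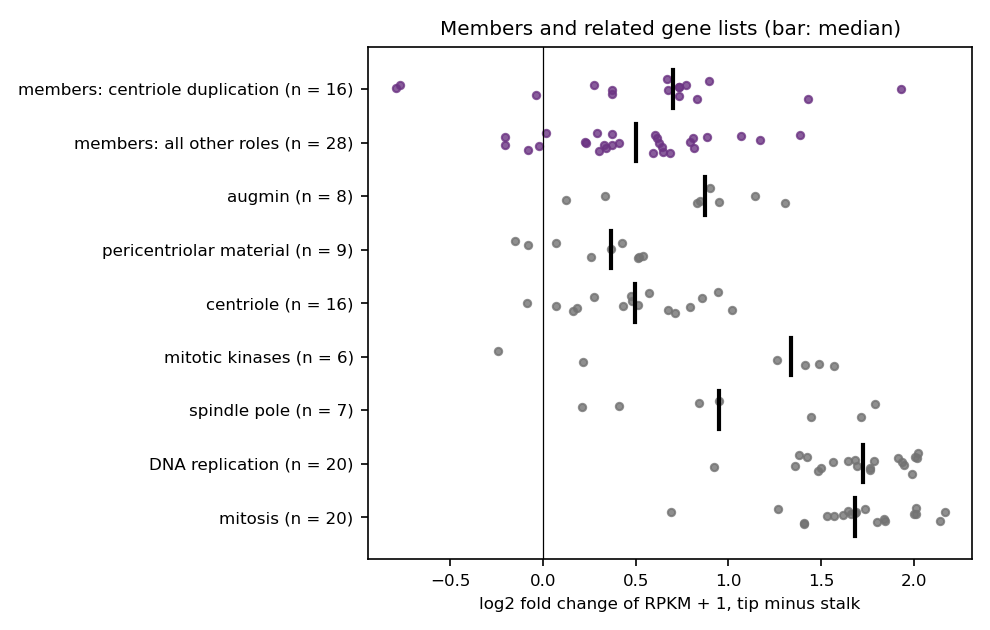
Log2 fold change of RPKM + 1 (tip minus stalk) of each tested member (purple) and of genes in related lists (grey), with the median as a black bar. The medians of the DNA replication (1.73) and mitosis (1.68) lists lie to the right of the median of the duplication members (0.70).

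All 8 ureteric epithelial markers had values, summing to 928 to 1022 RPKM in tip and 816 to 857 RPKM in stalk. They did not move as 1 group. Lhx1, Epcam and Wfdc2 were higher in tip, and Gata3 (-1.10) and Cdh1 (-0.47) were higher in stalk. Of all genes tested, 26.1% passed toward tip and 22.5% toward stalk. Endothelial markers, 12 of 12 with values, summed to 36.5 to 39.1 RPKM in tip and 80.4 to 128 RPKM in stalk, and 10 of 11 tested were higher in stalk. The defining endothelial gene Pecam1 was at 0.709 to 1.05 RPKM in tip and at 6.54 to 8.69 RPKM in stalk. Eng, the remaining tested marker of this list, passed the other way (0.38, limma adjusted p = 0.0486). It was at 8.41 to 11.3 RPKM in tip and at 6.50 to 7.40 RPKM in stalk. Summed markers of other cells were 3.57 to 7.88 RPKM in tip and 4.14 to 7.69 RPKM in stalk for stroma (8 of 8 with values), 2.90 to 3.52 RPKM in tip and 1.19 to 2.399 RPKM in stalk for nephron progenitors (6 of 6), 12.8 to 15.2 RPKM in tip and 14.2 to 21.5 RPKM in stalk for immune cells (5 of 6), and 12.4 to 72.4 RPKM in tip and 8.86 to 83.8 RPKM in stalk for erythroid cells (3 of 6). Multiciliated cells amplify centrioles in bulk, and their markers, 4 of 7 with values, summed to 1.64 to 2.23 RPKM in tip and 3.19 to 3.55 RPKM in stalk. Their defining gene Mcidas was listed at 0 in all tip libraries and in stalk replicate 2. Foxj1, the 1 multiciliated marker tested, was at 1.39 to 1.71 RPKM in tip and 2.21 to 2.82 RPKM in stalk. It was higher in stalk (-0.49, limma adjusted p = 0.0277). The part of other cell types in the results was not tested.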

How the data were processed

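Messenger RNA was sequenced in 3 tip and 3 stalk libraries, made with a Qiagen RNeasy micro kit and a Kapa stranded mRNA kit, per the labels' protocols. The authors deposited 1 table of RPKM values. According to the submitters' processing notes, the software included bcl2fastq 2.17, TopHat2 and Partek, with mm10 as the build. The annotation, how values were quantified and whether strand was used are not given in the sources used here. Of 93615 rows, 24545 held a question mark in place of values and were left out. Rows carry no transcript name and were summed by symbol, so 1 high row can set the value of its gene. Depth was unknown and no counting interval is given. The RPKM values of a library added up to between 345123 and 366035.

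Symbols averaging 1 RPKM or more were tested by limma 3.58.1 (R 4.3.3) on log2(RPKM + 1), with group as the only term, a variance trend, two-sided tests and the Benjamini-Hochberg adjustment over 12532 genes at 0.05. The pseudocount of 1 understates changes of low genes. The fit was also run on simulated data. Noise there was drawn separately for each gene and library and few genes were changed, whereas 48.6% were called here. That run therefore does not give the error rate of these calls. The share of Tubg2 was compared by an exact two-sided permutation test. Coordinates come from GENCODE M21, and start regions from RefSeq (GRCm38.p6), which matched 35 of the 45 members, and a motif match in any window of a gene was counted. Members and lists were chosen with earlier results of these data known. Genes were named by rule: called members with a change of at least 1 log2 unit or called toward stalk, the 2 most abundant of each role, Tubg1 and Tubg2, and the 2 most changed called genes of each related list. Other members are named so that each is accounted for, except 1 tested member that counts toward the totals and is not reported here. Of the role lists, 5 symbols had no row and are not analysed here. Alternatives varied the pseudocount, minimum level, scaling, rows, variance trend, replicate block and libraries. Leaving out tip replicate 2 with stalk replicate 1, counting identical rows once and dropping the highest row of Cep85 were chosen after seeing the data.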

Additional observations from a re-analysis of the deposited data

How the results depend on the processing

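The count of members higher in tip was 27, and ranged from 19 (without tip replicate 1) to 25 (without tip replicate 2) when 1 library was left out. With a minimum mean of 5 RPKM it was 16, since 11 of the 27 have a mean under 5 RPKM and were then not tested. Under the other alternatives it was 23 to 27. The count higher in stalk was 1 to 2 with 1 library left out, and 2 without tip replicate 2 and stalk replicate 1 together, where Cep85 joined Cep44. With median ratio scaling, 1 related gene outside the member rule, Nek7, passed toward stalk (-0.30, limma adjusted p = 0.0376). The median of the members was 0.49 to 0.67 with 1 library left out. The Tubg2 share differed by -1.57 percentage points (tip minus stalk), with a difference of -0.73 without stalk replicate 3 and -2.26 without stalk replicate 1. Deviations of same-numbered libraries from their group means correlated at -0.30, -0.34 and 0.09, so the replicate numbers showed no pairing. Each tip library correlated best with a stalk library of another number: tip 1 with stalk 3 (0.33), tip 2 with stalk 1 (0.56) and tip 3 with stalk 2 (0.40). Deviations sum to 0 within a group, which forces a positive best value. Pairing under other numbers therefore cannot be decided from these values. With the replicate block 24 members passed toward tip and 1 toward stalk. Of these 24, 23 were among the 27, Cep85l was added, and Cep110, Cep164, Cep89 and Pcm1 were not called (adjusted p = 0.0723 to 0.0973). Of the 14 called members named by the rule, 11 kept direction and call under every alternative that tested them, with Cep89, Pcm1 and Cep112 the exceptions. Cep110, Cep164 and Tubgcp4 were lost under scaling and on the highest row alone, among other settings. Unknown depth limits what can be said of members near 1 RPKM.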
